A study of Mus musculus with 6 samples.

Results

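Thy1 (ENSMUSG00000032011, chromosome 9, 44043384 to 44048579, plus strand, GRCm38) is 1 of the 17385 protein-coding genes in a count table from mouse hippocampus. It was chosen by its difference between the genotypes, and its promoter is the one that drives transgene expression in the mouse model, so its own levels and fold change are given here as a description with no p-value. The table holds 3 libraries of 3-month-old 5xFAD mice and 3 of wild-type (WT) mice of the same age, with no treatment given in the labels, and the comparison asks how the hippocampal transcriptome differs early in amyloid pathology. The 5xFAD mouse carries human APP with the Swedish, Florida and London mutations as a transgene driven by the mouse Thy1 promoter, which WT mice lack. Transgene expression therefore follows the cells that use this promoter cassette, mainly neurons. Sex is described in more than one way in the study and was not analysed, and no source used here says whether a library came from 1 mouse or from several.

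Thy1, also called CD90, is a small surface protein with a single immunoglobulin domain, held in the outer membrane leaflet by a glycosylphosphatidylinositol (GPI) anchor instead of a membrane span. In the mouse it is abundant on projection neurons after axons have grown, and it is also found on T cells and on fibroblasts. It has no cytoplasmic part, sits in lipid rafts with Src-family kinases, and binds integrins and a syndecan on neighbouring cells such as astrocytes and leukocytes. Its neuronal promoter has been cut out as a cassette and used to express many transgenes, and the usual cassette keeps non-coding exon sequence of Thy1 around the inserted coding sequence.

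In the GENCODE M21 annotation the longest protein-coding transcript of Thy1, Thy1-201, has 4 exons and 1735 bases, of which 486 (28.01%) are coding and 1249 are untranslated. Exon 1 is untranslated in full, exon 2 in part, and 1131 of the 1241 bases of exon 4 lie after the coding part. No other annotated gene overlapped it. The counts are 1 number a gene, so reads from the endogenous gene and reads from Thy1 exon sequence in a transgene transcript cannot be told apart.

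The Thy1 counts fell into 2 separate levels. They were 19139, 19135 and 17785 reads in WT replicates 1, 2 and 3, and 58808, 59242 and 58555 reads in 5xFAD replicates 1, 2 and 3. The lowest 5xFAD count lay far above the highest WT count, and the 3 5xFAD counts differed from each other with a coefficient of variation of only 0.590%, close to the 0.411% to 0.413% that counting alone gives at this depth. The library totals of the same 3 samples varied more, with a coefficient of variation of 11.4%, so near-equal counts are not equal levels. After scaling to library size the coefficient of variation of Thy1 was 16.65% in 5xFAD and 4.36% in WT.

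Scaled to the effective library size, as CPM (reads in 1000000 counted reads), Thy1 was at 851.1, 886.6 and 812.5 CPM in WT and at 2776, 3316 and 2379 CPM in 5xFAD. The means were 850.1 ± 37.1 CPM in WT and 2824 ± 470.2 CPM in 5xFAD (SD, n = 3 each), and the groups did not overlap. The difference was 1974 CPM, the ratio of the means 3.32, and the fitted log2 fold change (log2FC) 1.73 with a standard error (SE) of 0.12. Over single libraries the ratio of a 5xFAD to a WT level ran from 2.68 to 4.08. The order within 5xFAD, replicate 2 above 1 above 3, was the reverse of the order of their totals, 18997677, 21387867 and 23873280 reads, since nearly equal counts were divided by unequal totals.

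**Figure D1:**
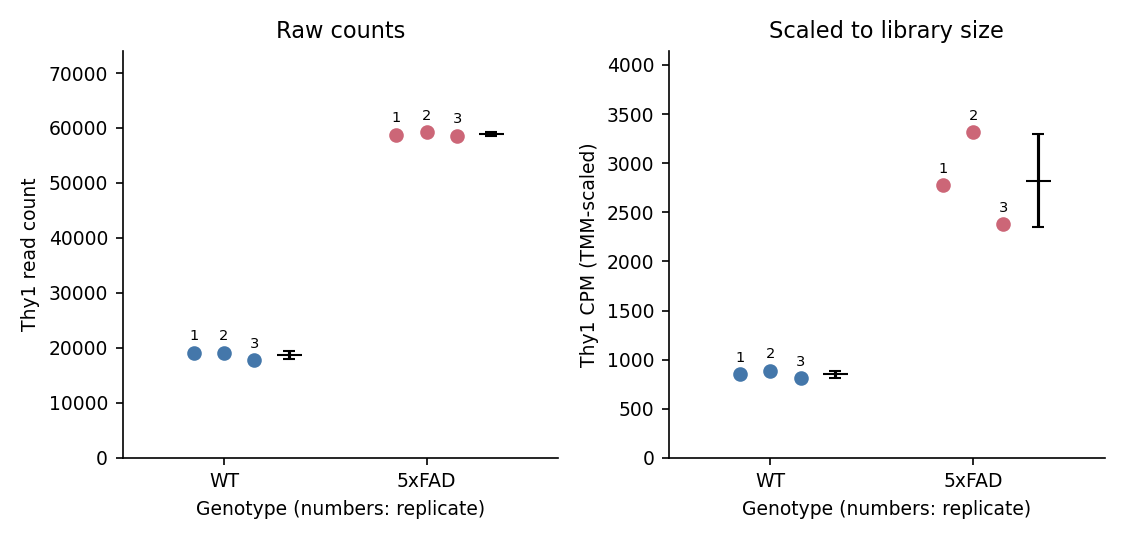
Thy1 in each library as raw read counts (left axis, reads) and as CPM after TMM scaling (right panel axis, CPM), for WT and 5xFAD, with points numbered by replicate and the bar at the side of each group giving mean ± SD (n = 3). The 5xFAD counts sit together between 58555 and 59242 reads, while after scaling they spread from 2379 to 3316 CPM, all above the WT libraries at 812.5 to 886.6 CPM.

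Thy1 took 0.0825% to 0.0893% of all counted reads in the WT libraries and 0.245% to 0.312% in the 5xFAD libraries. Per kilobase of transcript its level was 468 to 511 CPM per kb in WT, where it ranked 41st to 47th among the genes with a known length, and 1371 to 1911 CPM per kb in 5xFAD, where it ranked 3rd or 4th. Thy1 was thus already an abundant mRNA in WT. In 5xFAD its reads ranked near the top, but they may include Thy1 exon sequence of transgene transcripts. The level of the endogenous mRNA in 5xFAD is therefore not known. Across all 13937 genes tested, the median log2FC was -0.01 and Thy1 ranked 53rd by log2FC. Among the 2348 genes with at least 100 CPM in WT it ranked 1st, ahead of B2m, the light chain of class I histocompatibility molecules (log2FC 1.69, SE 0.30), and Gfap, the intermediate filament of astrocytes (1.34, SE 0.08). Thy1 was chosen by this difference, so its ranks by log2FC are a description.

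Thy1 reads were also set against those of neuronal mRNAs taken as the reference, as a description. Thy1 was chosen by its difference, and the 16 genes used differed far less (log2FC -0.45 to 0.59), so separate groups largely follow from that choice. For each of 16 pan-neuronal genes the number of Thy1 reads per read of that gene was higher in all 5xFAD libraries than in any WT library. The list's geometric mean as the denominator gave 1.72, 1.70 and 1.71 Thy1 reads per reference read in WT and 5.65, 6.07 and 5.37 in 5xFAD, a ratio of means of 3.33. The WT ratios had an SD of 0.00999, so within WT the Thy1 count followed the counts of this list closely. Against single genes the fold ran from 2.37 for Snap25, a vesicle fusion protein, to 4.61 for Tubb3, the neuronal tubulin, with a median of 3.18. Against Syt1, the calcium sensor of synaptic vesicles, the spread in 5xFAD was small, with 1.22, 1.16 and 1.24 Thy1 reads per Syt1 read against 0.391, 0.399 and 0.387 in WT.

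**Figure D2:**
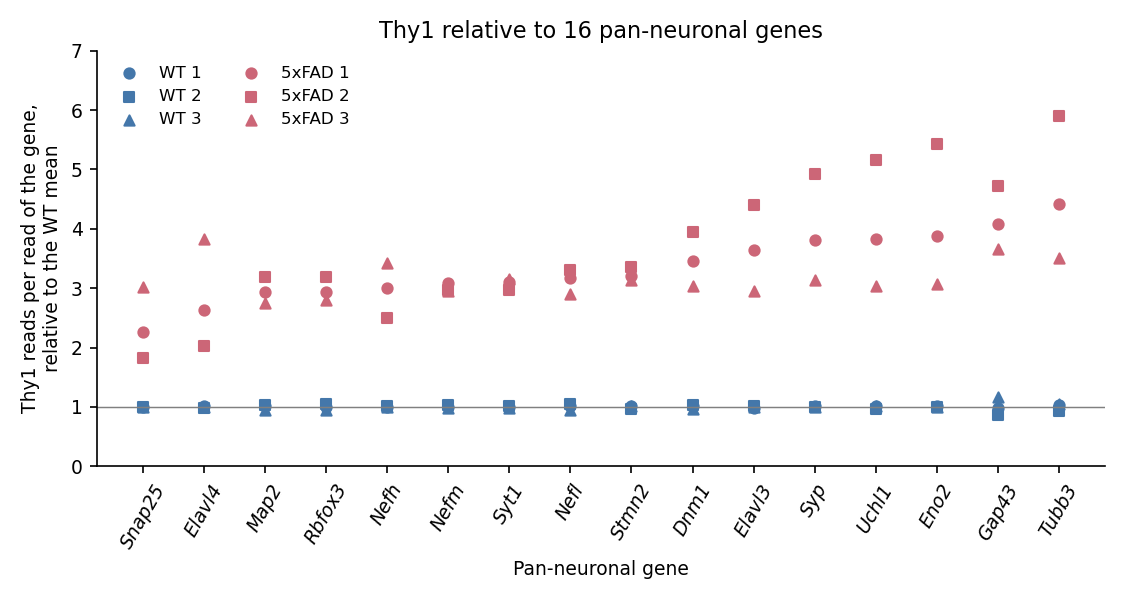
Thy1 reads per read of each of 16 pan-neuronal genes, divided by the WT mean of that ratio (y axis, no unit), with genes ordered by fold on the x axis, blue symbols for WT and red for 5xFAD, and 1 symbol shape per replicate. All red symbols lie above all blue ones for every gene, with mean folds from 2.37 (Snap25) to 4.61 (Tubb3), and 5xFAD replicate 2 is the lowest of the red symbols at Snap25 and the highest at Tubb3.

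A trend with base composition ran through 2 of the 5xFAD libraries. Between a gene's deviation from its WT mean and its GC content the rank correlation across genes was -0.52 and -0.66 in 5xFAD replicates 1 and 2, -0.07 in replicate 3, and between -0.06 and 0.06 in WT; genes are not independent replicates, and this is a description. Thy1 has a GC content of 55.8%, above 78.7% of the genes tested, and so lies on the side where these libraries read low. Over the 1357 genes within 1 percentage point of its GC content, the median deviation on the log2 scale was -0.18, -0.44 and -0.03 in the 3 5xFAD replicates. Thy1 lay 1.89, 2.40 and 1.52 above these medians. With a GC and length term for each library the log2FC of Thy1 was 1.94 (SE 0.19). From 5xFAD replicate 3 alone, the 5xFAD library with the least trend, it was 1.501. That fit holds 1 5xFAD library, so the spread within 5xFAD is not measured in it.

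**Figure D3:**
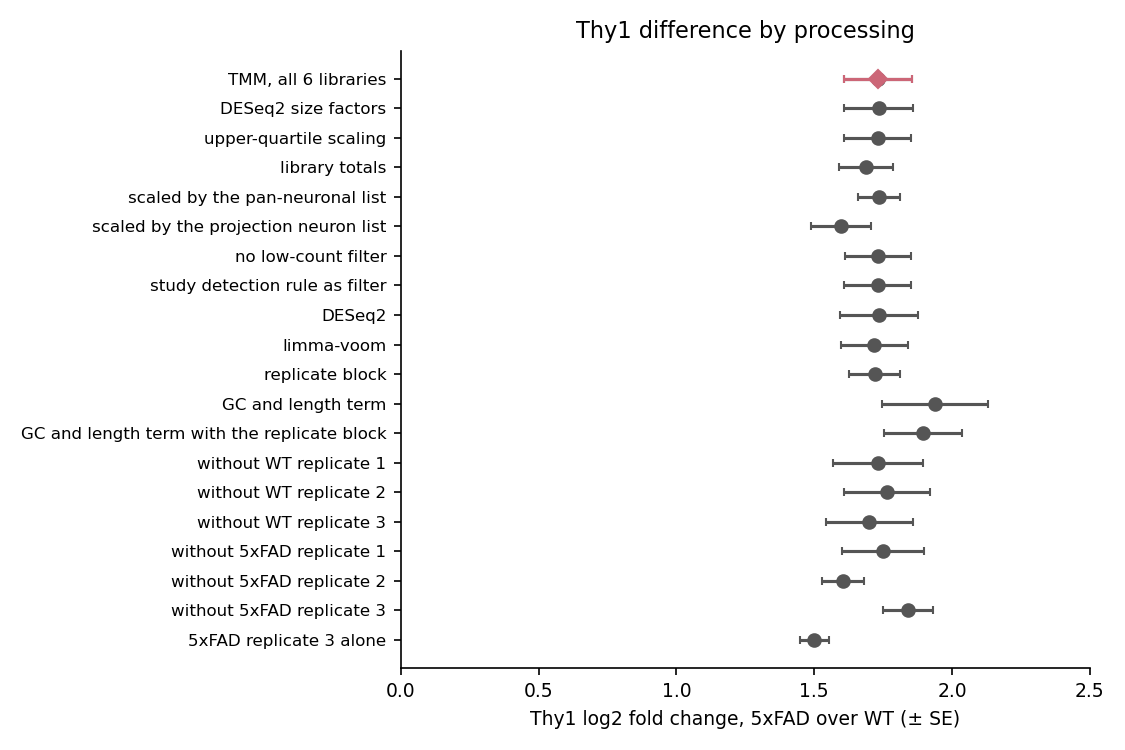
Log2FC of Thy1 in 5xFAD over WT (x axis, with SE as bars) under each way of processing (y axis), the red diamond being the fit of all 6 libraries with TMM scaling. Every value lies between 1.501 and 1.94. The lowest comes from 5xFAD replicate 3 alone, and its bar holds no spread within 5xFAD.

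The endogenous counterpart of the APP transgene did not pass the test. App, the precursor of amyloid-beta peptide, was at 1962 ± 89.0 CPM in WT and 1844 ± 145 CPM in 5xFAD (log2FC -0.09, SE 0.08, edgeR quasi-likelihood test with Benjamini-Hochberg adjustment, adjusted p = 0.519). The 2 groups overlapped. How many reads of the human coding sequence were counted at the mouse gene was not tested.

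The genes beside Thy1 on the chromosome were compared next. All 9 genes tested whose start lies within 250 kb of the Thy1 start are on its downstream side, and their median log2FC was -0.40, against 1.73 for Thy1 (0.11 with 5xFAD replicate 3 alone, where Thy1 was at 1.501). The nearest, Usp2, a ubiquitin-specific protease whose start is 23.6 kb away, was at 60.4, 54.5 and 59.3 CPM in WT and 59.0, 54.9 and 62.3 CPM in 5xFAD (log2FC 0.02, SE 0.09, adjusted p = 0.91 by the edgeR quasi-likelihood test). The 2 groups overlapped for Usp2, unlike for Thy1, which was chosen by its difference.

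Of the 9 neighbours 1 passed the adjusted p threshold of 0.05 and it was lower in 5xFAD, beside 0.0933% of all genes called lower and 0.761% called in either direction. This was Mcam, an endothelial and pericyte adhesion protein of the immunoglobulin superfamily, 91.1 kb away, with 636, 625 and 648 reads in WT and 342, 285 and 478 reads in 5xFAD. Its levels were 28.9 ± 0.66 and 17.2 ± 1.95 CPM, a log2FC of -0.75 (SE 0.11, adjusted p = 0.0328 by the edgeR quasi-likelihood test), with no overlap of the groups. The call was lost without any one of the WT replicates or without 5xFAD replicate 1 (adjusted p from 0.132 to 0.257). It was also lost with pan-neuronal scaling (0.158). These fits called only 0.0142% to 0.0287% of all genes lower. With 5xFAD replicate 3 alone the log2FC of Mcam was -0.56.

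Usp2 and the other 7 neighbours did not pass in the fit of all 6 libraries. DESeq2 called 2 of the 9 lower, beside 1.26% of all genes, and without 5xFAD replicate 3 there were 3 lower, Mcam, Nlrx1 (adjusted p = 0.0183) and Abcg4 (adjusted p = 0.0268), beside 10.9% of all genes. Nlrx1, a mitochondrial NOD-like receptor, had 205, 206 and 207 reads in WT and 107, 57 and 163 in 5xFAD (-0.91, SE 0.24, adjusted p = 0.175), and Cbl, a ubiquitin ligase of receptor signalling, had a log2FC of 0.27 (SE 0.09, adjusted p = 0.22). Both had groups that did not overlap, as did 28.3% of all genes tested. Abcg4, a sterol transporter, had a log2FC of -0.40 (SE 0.19). Mfrp, a frizzled-related membrane protein, had only 10 to 56 reads a library (1.32, SE 0.48, adjusted p = 0.236), and its span overlaps that of Rnf26 on the other strand (-0.57, SE 0.45), so their counts are uncertain where strand was not used. Ccdc153, a coiled-coil protein, and Pdzd3, a PDZ scaffold, had log2FC values of -0.47 (SE 0.46) and -0.22 (SE 0.49).

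**Figure D4:**
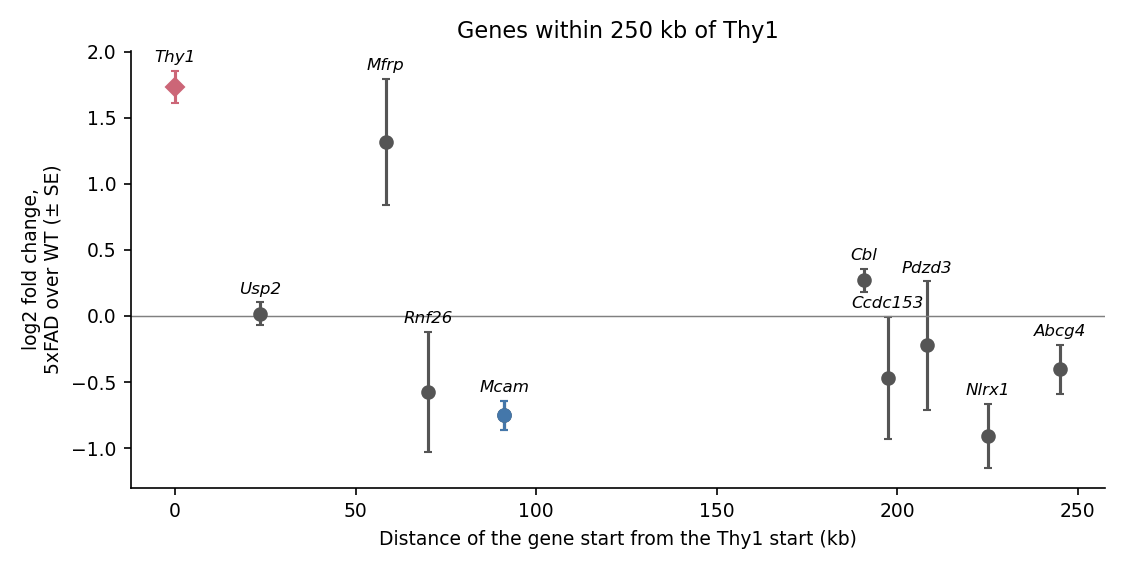
Log2FC in 5xFAD over WT (y axis, ± SE) of Thy1 (red diamond) and of the 9 genes tested within 250 kb, placed by the distance of their start from the Thy1 start in kb (x axis). Thy1 stands at 1.73, Usp2 at 0.02 at 23.6 kb, and Mcam (blue) at -0.75 is the only neighbour past the adjusted p threshold.

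Cells that carry Thy1 were then compared by their other markers. In bulk tissue, fewer cells of a type and less RNA per cell cannot be told apart. None of the 12 projection neuron markers passed the edgeR quasi-likelihood test, and by limma-voom or DESeq2 0 passed too. Over all genes 0.761%, 0.732% and 3.64% passed by these methods, so 0 of 12 does not set the markers apart. An unadjusted p under 0.05 was found for 1, against 18.9% of all genes tested, and the median log2FC was 0.12. Camk2a, the kinase subunit typical of excitatory neurons, was at 5848 ± 212 CPM in WT and 5861 ± 327 CPM in 5xFAD (0.00, SE 0.07), and Slc17a7, the vesicular glutamate transporter of these cells, was at 1678 ± 18.2 and 1544 ± 179 CPM (-0.12, SE 0.09). The 2 smallest p-values belonged to Bhlhe22, a transcription factor of cortical and hippocampal projection neurons (0.43, SE 0.12, adjusted p = 0.191), and Chn1, a Rac-regulating neuronal protein (0.27, SE 0.12, adjusted p = 0.276). Summed over the list, these markers were at 11406 to 12227 CPM in WT and 12021 to 12390 CPM in 5xFAD. Without 5xFAD replicate 3, the 5xFAD library with the least trend in base composition, 4 of the 12 were called higher, beside 12% of all genes called higher and 10.9% lower in that fit.

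The pan-neuronal list gave 0 of 16 called by edgeR and by limma-voom, beside 0.761% and 0.732% of all genes. By DESeq2 1 was called, lower. The median log2FC was 0.06 (-0.11 with 5xFAD replicate 3 alone). Snap25 was at 2389 ± 89.6 CPM in WT and 3590 ± 1455 CPM in 5xFAD, where the SD exceeded the difference of the means (0.59, SE 0.26, adjusted p = 0.266), and Syt1 had a log2FC of 0.12 (SE 0.14). Tubb3 (-0.45, SE 0.11, adjusted p = 0.143) and Syp, synaptophysin of synaptic vesicles (-0.24, SE 0.08, adjusted p = 0.222), had the smallest p-values. Of the 16 genes 5 had an unadjusted p under 0.05, against 18.9% of all genes tested. Without 5xFAD replicate 3, 2 were called higher and 4 lower, beside the same 12% and 10.9% of all genes. DESeq2 called 2.38% of all genes higher and 1.26% lower.

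None of the 8 interneuron markers passed by edgeR or limma-voom, beside 0.761% and 0.732% of all genes. By DESeq2 2 were lower, beside 1.26% of all genes. An unadjusted p under 0.05 was found for 3, against 18.9% of all genes tested, and the median log2FC was -0.23. Without 5xFAD replicate 2, 1 marker was called lower (0.298% of all genes), and without replicate 3, 2 were (10.9% of all genes). Their summed level was 961 to 1300 CPM in WT and 802 to 1028 CPM in 5xFAD. Sst, the peptide of somatostatin cells, was at 254 ± 22.7 CPM in WT and 192 ± 20.2 CPM in 5xFAD (-0.41, SE 0.11, adjusted p = 0.164), and Slc32a1, the vesicular GABA transporter, was at 73.5 ± 19.2 and 42.6 ± 8.84 CPM (-0.78, SE 0.22, adjusted p = 0.187). The GABA-synthesising enzymes Gad1 and Gad2 had log2FC values of -0.20 (SE 0.10) and -0.38 (SE 0.25).

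T cell transcripts were near 0 in both genotypes. Cd3d and Cd3e, subunits of the T cell receptor complex, had 0 or 1 read in each of the 6 libraries, Cd8a had 0 or 1, and Cd4, which microglia can also express, had 1 to 11. Of the 14 T cell markers listed 13 were found in the table, and only Lck and Zap70 had enough reads to be tested. Neither passed by edgeR, limma-voom or DESeq2, beside 0.761%, 0.732% and 3.64% of all genes. Lck, a Src-family kinase, was at 1.26 ± 0.25 CPM in WT and 1.69 ± 0.25 CPM in 5xFAD, and Zap70, a kinase of the T cell receptor and the 1 of them with an unadjusted p under 0.05, was at 5.53 ± 0.55 and 3.79 ± 0.36 CPM.

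None of the 12 fibroblast and pericyte markers passed by edgeR or limma-voom, beside 0.761% and 0.732% of all genes. By DESeq2 3 were lower (1.26% of all genes), and 5 were without 5xFAD replicate 3 (10.9% of all genes). An unadjusted p under 0.05 was found for 5, against 18.9% of all genes tested. The median log2FC was -0.49, with 11 of 12 values below 0. Their summed level was 512 to 598 CPM in WT and 478 to 511 CPM in 5xFAD. The collagen chains Col1a1 (13.4 ± 3.87 CPM in WT and 6.59 ± 0.67 CPM in 5xFAD, log2FC -1.03, SE 0.22) and Col1a2 (-1.03, SE 0.23) had the smallest adjusted p-values, 0.113 and 0.124 by the edgeR quasi-likelihood test. The most abundant members, the pericyte gene Rgs5 and the matrix proteoglycan Dcn, had log2FC values of 0.13 (SE 0.09) and -0.03 (SE 0.22). No member of these marker lists was called higher in the edgeR fit of all 6 libraries, beside 0.667% of all genes. Whether cell make-up bears on the Thy1 difference was not tested.

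Among genes for proteins that bind Thy1, a pair of integrin chains rose. Of 10 binding partners tested, all known from rodent or human cells, 2 were called higher and none lower, beside 0.667% of all genes called higher. Their median log2FC was 0.49. The list was chosen with earlier results of these data known, so the count is a description. Itgax, the integrin alpha-X chain, had 3, 11 and 5 reads in WT and 140, 81 and 215 reads in 5xFAD. That is 0.29 ± 0.20 against 6.63 ± 2.10 CPM, a log2FC of 4.50 (SE 0.45, adjusted p = 0.00681 by the edgeR quasi-likelihood test), low in level in both genotypes. Itgb2, the beta-2 chain that pairs with it, rose from 8.39 ± 0.93 to 20.9 ± 3.81 CPM (1.32, SE 0.17, adjusted p = 0.0193 in the same test), with 169, 179 and 205 reads in WT and 464, 299 and 595 reads in 5xFAD.

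Both rises had no overlap of the groups. The same held for 7 of the 10 partners in all, with Cd97 on the lower side, and for 28.3% of all genes tested. Both lost their call when some of the libraries were left out, in fits that called only 0.071% to 0.121% of all genes higher. The adjusted p of Itgax was 0.0529 without WT replicate 1 and 0.0695 without WT replicate 3, and that of Itgb2 was 0.154, 0.126 and 0.0896 without WT replicates 1, 2 and 3, 0.13 without 5xFAD replicate 1 and 0.071 with pan-neuronal scaling. With 5xFAD replicate 3 alone the median log2FC of the 10 partners was 0.61. With the GC and length term, 4 of them were called higher, beside 1.08% of all genes. DESeq2 called 5 of them higher (2.38% of all genes), as were 4 when 5xFAD replicate 2 was left out (1.31%) and 6 when replicate 3 was (12%).

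The other 8 partners did not pass. Itgam, the alpha-M chain, was at 31.2, 29.9 and 28.3 CPM in WT and 46.2, 40.0 and 52.0 CPM in 5xFAD (0.63, SE 0.11, adjusted p = 0.0675), the nearest to the threshold. The chains of the astrocyte receptor for Thy1 described in rodents, Itgav and Itgb3, had log2FC values of 0.28 (SE 0.15, adjusted p = 0.308) and 0.77 (SE 0.20, adjusted p = 0.156), and the heparan sulfate proteoglycan Sdc4, its co-receptor, -0.17 (SE 0.20, adjusted p = 0.607). Itgb5 and Itga5, further chains of matrix-binding integrins, had 0.52 (SE 0.12, adjusted p = 0.141) and 0.46 (SE 0.35), and Itgb1, the shared beta-1 chain and the most abundant partner at 63.4 ± 0.86 CPM in WT, 0.15 (SE 0.08). Cd97, the older symbol in the table for the adhesion receptor Adgre5, was at 16.9 ± 2.20 CPM in WT and 12.4 ± 2.53 CPM in 5xFAD (-0.45, SE 0.18, adjusted p = 0.251).

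Itgax, Itgb2 and Itgam are chains that microglia and other myeloid cells carry in brain, and microglia markers were higher in the same libraries. Of 11 microglia markers tested, a list added after the data were seen, 7 were called higher and none lower, beside 0.667% of all genes called higher, with a median log2FC of 0.94. The calls fell to 0 without any one of the WT replicates or without 5xFAD replicate 1. Calls fell over all genes too, with 0.071% to 0.121% called higher in these fits. With pan-neuronal scaling 1 marker was called, beside 0.344% of all genes called higher. The median of the markers stayed between 0.88 and 1.29 under these and the other settings tried. Summed over the list the level was 415 to 419 CPM in WT and 667 to 919 CPM in 5xFAD. Tmem119, a homeostatic microglia marker, had overlapping groups (-0.06, SE 0.20), and Csf1r had 1 to 11 reads a library and was not tested. The part of these cells in the Itgax and Itgb2 rises was not tested.

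The genes for proteins through which Thy1 acts inside the membrane had no call by edgeR. Of 17 raft and Src-family signalling genes 0 passed by edgeR and limma-voom, beside 0.761% and 0.732% of all genes. By DESeq2 2 were higher, beside 2.38% of all genes. An unadjusted p under 0.05 was found for 5, against 18.9% of all genes tested, and the median log2FC was 0.01. Without 5xFAD replicate 3, 4 were higher and 3 lower, beside 12% and 10.9% of all genes. Pag1, the raft adaptor that recruits the Src-inhibiting kinase, was at 44.1 ± 4.22 CPM in WT and 59.7 ± 2.58 CPM in 5xFAD (0.44, SE 0.10, adjusted p = 0.123), and Lyn, a Src-family kinase of myeloid cells, at 9.87 ± 1.58 and 15.3 ± 0.46 CPM (0.63, SE 0.14, adjusted p = 0.128). The most abundant members, Grlf1 (now Arhgap35), a GTPase-activating protein, and Ptpra, a phosphatase that activates Src kinases, had log2FC values of -0.07 (SE 0.07) and 0.07 (SE 0.07).

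The genes of other proteins with the same kind of anchor were set beside Thy1 as a description. Thy1 was chosen by its difference, so a larger log2FC than theirs largely follows from that choice. Of 32 other GPI-anchored surface proteins 0 passed by edgeR and limma-voom, beside 0.761% and 0.732% of all genes. By DESeq2 1 was lower, beside 1.26% of all genes. An unadjusted p under 0.05 was found for 8, against 18.9% of all genes tested. The median log2FC was -0.02, with a range from -0.80 to 0.34. Per kilobase of transcript, Thy1 had the highest level of these 33 genes in both genotypes, in 5xFAD with any transgene reads included. In WT it stood at 490 ± 21.4 CPM per kb, just above Prnp, the prion protein, at 424 ± 16.1 CPM per kb, with no overlap of their libraries (468 to 511 against 406 to 438 CPM per kb). In 5xFAD it stood at 1627 ± 271 CPM per kb while Prnp was at 419 ± 22.0 CPM per kb. Ly6e, a surface protein of the Ly6 family and the third in order, was at 129 ± 5.40 and 120 ± 16.5 CPM per kb.

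As log2FC values, Prnp was at -0.02 (SE 0.08) and Cntn1, the neuronal contactin, at 0.12 (SE 0.08). Cntfr, the anchored receptor chain for ciliary neurotrophic factor, was at 102 ± 4.60 CPM in WT and 77.0 ± 6.98 CPM in 5xFAD (-0.41, SE 0.09, adjusted p = 0.131), and Efna3, an ephrin, at 86.5 ± 2.68 and 65.1 ± 10.2 CPM (-0.41, SE 0.12, adjusted p = 0.199). Both had groups that did not overlap, as had 8 of the 32, against 28.3% of all genes. Without 5xFAD replicate 3, 3 of the 32 were called higher and 6 lower, beside 12% and 10.9% of all genes.

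The genes for the machinery that makes and attaches the anchor had no call by edgeR either. Of 28 GPI anchor synthesis and attachment genes 0 passed by edgeR and limma-voom, beside 0.761% and 0.732% of all genes. By DESeq2 1 was lower, beside 1.26% of all genes. An unadjusted p under 0.05 was found for 6, against 18.9% of all genes tested, with a median log2FC of -0.08. Groups that did not overlap were found for 12 of 28, against 28.3% of all genes. Without 5xFAD replicate 3, 2 were called higher and 6 lower, beside 12% and 10.9% of all genes. Pigz, a mannosyltransferase of the pathway, was at 8.16 ± 0.67 CPM in WT and 4.07 ± 1.41 CPM in 5xFAD (-0.99, SE 0.24, adjusted p = 0.149), and Pigb, another mannosyltransferase, at 12.04 ± 0.49 and 15.9 ± 1.88 CPM (0.40, SE 0.12, adjusted p = 0.215). Pigt, a subunit of the transamidase that attaches the anchor, had a log2FC of -0.27 (SE 0.11, adjusted p = 0.256) and Pigq, of the first step of the pathway, -0.34 (SE 0.15, adjusted p = 0.263).

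Of 15 immunoglobulin-domain adhesion proteins with a membrane span 1 was called lower and none higher. This stands beside 0.0933% of all genes called lower and 0.761% in either direction. It was Mcam, given above, and the median log2FC of the 15 was 0.01. None of the 15 was called with pan-neuronal scaling, beside 0.373% of all genes. Their median was -0.13 with 5xFAD replicate 3 alone. Without 5xFAD replicate 3 there were 3 called higher and 2 lower, beside 12% and 10.9% of all genes. The most abundant, Cadm3, a synaptic adhesion protein, was at 568 ± 20.0 CPM in WT and 494 ± 26.9 CPM in 5xFAD (-0.20, SE 0.08, adjusted p = 0.243), and Nfasc, of axon initial segments and nodes, at 466 ± 27.7 and 450 ± 34.4 CPM (-0.05, SE 0.09). Ncam2, a neuronal adhesion protein, was at 40.1 ± 0.85 and 54.8 ± 11.6 CPM (0.45, SE 0.15, adjusted p = 0.222). Over all lists except the added microglia markers, 153 genes other than Thy1 were tested and 3 passed, 1.96% against 0.761% of all genes. The lists were chosen with earlier results of these data known, so this share is a description and no support for a link to Thy1.

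**Figure D5:**
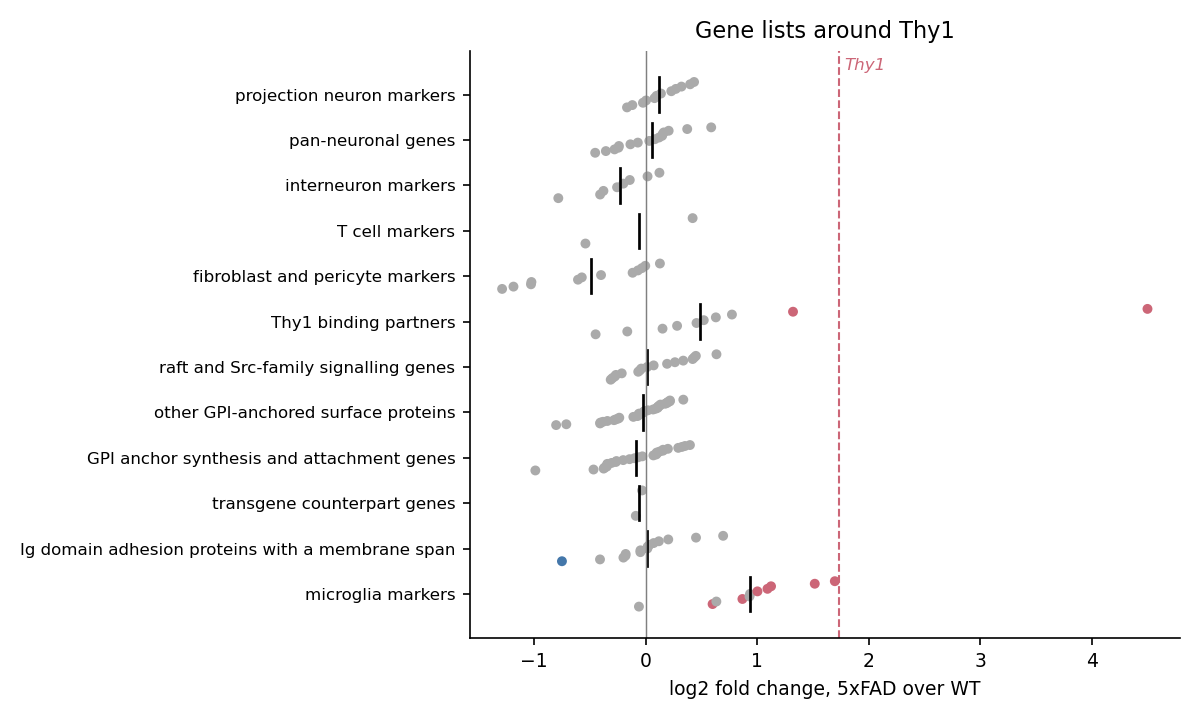
Log2FC in 5xFAD over WT (x axis) of each tested member of the gene lists (y axis), red where called higher and blue where called lower at an adjusted p under 0.05, grey otherwise, with a black bar at each list's median and a dashed line at Thy1. The projection neuron, pan-neuronal and GPI lists have medians between -0.08 and 0.12 with no member called, beside 0.761% of all genes called. Itgax stands alone at 4.50. Thy1 at 1.73 lies beyond every neuronal and GPI-anchored gene shown, which largely follows from its choice by this difference.

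The genes whose pattern over the 6 libraries was most like that of Thy1 were mostly genes with few reads. Likeness was measured over 13046 genes with at least 1 CPM, by Pearson correlation of log2 CPM and by the root mean square distance from Thy1 after centring on the WT mean, and both mostly follow the genotype difference on which Thy1 was chosen; 210 genes had a correlation above 0.95. The 8 highest correlations, from 0.994 to 0.998 over 6 libraries, belonged to C3ar1, a complement receptor, Plek, a leukocyte kinase substrate, Fcgr2b, an inhibitory antibody receptor, Tlr7, a receptor for single-stranded RNA, Ifit1, an interferon-induced protein, C330027C09Rik, Katna1, a microtubule-severing enzyme, and Cd68, a lysosomal protein of phagocytes.

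The closest by distance was Tlr7, 0.10 on the log2 scale from Thy1, with 4.67, 4.82 and 3.88 CPM in WT and 13.03, 17.3 and 11.9 CPM in 5xFAD. Like Thy1, it was highest in 5xFAD replicate 2 and lowest in replicate 3 within that genotype. Tlr7 was picked by its distance over these same libraries, so the shared order is no added likeness. Fyb, a leukocyte adaptor, Fcgr2b, Naip2, an inflammasome sensor, Cd84, a leukocyte adhesion receptor, Ptprc, the leukocyte phosphatase CD45, Xlr, an X-linked lymphocyte gene, and Ly86, a partner of a Toll-like receptor relative, followed, at 0.15 to 0.18. Their levels were far lower than that of Thy1, with Ly86 the highest of the 8 at 9.59 ± 0.75 CPM in WT and 34.3 ± 0.58 CPM in 5xFAD. Naip2 has near-identical paralogs and Xlr belongs to a multigene family, so their counts are uncertain. Katna1, in contrast, matched in shape only, with a log2FC of 0.28 (SE 0.11, adjusted p = 0.246 by the edgeR quasi-likelihood test).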

How the data were processed

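RNA depleted of ribosomal RNA was sequenced as 150-base paired-end reads by the study. Per the labels and the study's methods, the authors trimmed reads with cutadapt 1.9.3, aligned them with HISAT2 2.0.4 to mm10 and counted them with HTSeq 0.9.1. The deposited columns that were analysed hold unnormalized counts, 1 value for each gene and library. Annotation release and strand setting: not given in the sources used here. Another 6 columns of per-sample values were not used, and the authors' own fold changes and p-values, made with edgeR 3.16.5, were neither used nor compared. Total counts were 18997677 to 23873280 a library, which leaves a counting error of 0.411% to 0.750% for Thy1, below the spread between libraries in WT.

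Genes with too few reads were removed (filterByExpr, minimum count 10) and 13937 were fitted over all 6 libraries with edgeR 4.0.16 (R 4.3.3, quasi-likelihood, TMM scaling, two-sided, Benjamini-Hochberg over all genes tested, threshold 0.05). Log2 CPM used a prior count of 1. Replicates were compared by chi-square and no pair of libraries was alike within counting error. Coordinates, lengths and GC come from GENCODE M21. Thy1 had no entry among the promoter sequences given. The fits were tested on simulated data. The gene and the lists were chosen with earlier results of these data known. Named were Thy1, App, all tested genes within 250 kb, per list the 2 smallest p-values and the 2 highest WT levels, and the 8 genes most alike by each measure (1 gene that the rule takes is not reported here); further members of the binding partner list, and the microglia markers, were named after their values were seen. T cell marker Trbc2 and anchor genes Pigy and Pgap6 were not matched in the table. The alternatives were other scalings, filters, DESeq2 1.42.0, limma-voom (limma 3.58.1), a replicate block, a GC and length term, leaving out each library and 5xFAD replicate 3 alone. The labels do not say that the samples are separate animals, so p-values measure the spread between these samples.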

Additional observations from a re-analysis of the deposited data

How the results depend on the processing

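The Thy1 log2 fold change was 1.73 and stayed positive under each of 19 alternatives, between 1.501 (5xFAD replicate 3 alone) and 1.94 (GC and length term), 2.83-fold to 3.83-fold; leaving out 1 library each gave 1.60 to 1.84. Scaling by the projection neuron list, chosen after seeing the data, gave 1.60. The WT level was 850.1 CPM with TMM and 860.9 CPM with library totals.

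The count of genes called depended on the setting far more. It was 106 with all 6 libraries, 69 with library totals, 52 with pan-neuronal scaling, 38 with projection neuron scaling, 507 with DESeq2 and, with the GC and length term, 176. Leaving out 1 library each gave 12 to 3229, the latter without 5xFAD replicate 3. List genes called are given with the share of all genes called in the same fit. They were 3 of 153 with all libraries (0.761%), 1 with pan-neuronal scaling (0.373%) and 1 with projection neuron scaling. With DESeq2 they were 16 (3.64%), and with the GC and length term 5 (1.28%). Without 1 library each they were 0 to 52 (0.0852% to 22.9%), the 52 without 5xFAD replicate 3. The cause was not tested.

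Same-numbered samples did not deviate together (correlations -0.00, -0.03 and -0.04, and not every sample correlated best with its own number), so the numbers were not taken as a pairing. With the replicate block, Thy1 was at 1.72 (SE 0.09), 20 genes and 0 list genes were called, with 0 of the 10 binding partners and 0 of the 11 added microglia markers among them; adding the GC and length term to the block, these were 1.89, 97 and 4.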
